A study of Mus musculus with 12 samples.

Results

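The genes described here are 10 intracellular brakes on T cell receptor signalling, taken by symbol: Cd5, Cblb, Cbl, Ptpn6, Ptpn22, Ubash3a, Ubash3b, Dgka, Dgkz and Sla2. Each matched 1 of the 55401 gene identifiers in the deposited count tables. All 10 passed the filter on low counts, as did 16426 genes in all. The rule used function and no measured value, but the genes were chosen with earlier results of these data known. RNA was sequenced in bulk from mouse OT-I CD8 T cells, whose transgenic receptor recognises an ovalbumin peptide, with 3 libraries in each of 4 groups. The naive group was taken at day 0 from the lymph nodes of tumour-free OT-I animals. The effector group was made in a 5 day culture with antigen. The day 4 and day 14 groups, labelled exhausted, were CD44+ OT-I cells sorted from B78ChOVA melanomas, an ovalbumin-expressing mouse tumour line, 4 or 14 days after their transfer into C57Bl6/J mice. All 4 groups share the OT-I genotype. The tumour groups differ from the other groups in tissue, in host, in the CD44 gate and in the presence of tumour, and these cannot be told apart. No source used here gives the age of the mice, pooling, or whether the 3 libraries of a group came from separate animals or cultures. The p-values therefore set group differences against a spread between libraries that may be technical.

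When a T cell receptor binds antigen, the kinases Lck and Zap70 phosphorylate adaptors, and phospholipase C then makes diacylglycerol, which activates the Ras and protein kinase C theta pathways. The brakes act at successive steps of that cascade. CD5 is a surface receptor whose cytoplasmic tail docks inhibitory proteins. CBL and CBL-B are ubiquitin ligases that tag receptor-proximal proteins. The tyrosine phosphatases SHP-1 (Ptpn6) and PEP (Ptpn22) and the phosphatase STS-1 (Ubash3b) remove activating phosphates, STS-2 (Ubash3a) is the paralog of STS-1 with weak phosphatase activity, the diacylglycerol kinases alpha and zeta consume diacylglycerol, and SLAP-2 (Sla2) is an adaptor that helps CBL to lower receptor levels.

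Gene counts per library ranged from 11937053 to 17094006. Levels are given as CPM, gene counts per library total, the totals adjusted by TMM and brought to the same scale, as mean ± SD over 3 libraries unless library values are listed. A gene was called in a comparison at an edgeR adjusted p under 0.05, over 16426 genes. No pair of libraries of 1 group held identical counts, and their log2 CPM correlated at 0.9698 to 0.981. CD8 T cell transcripts were detected throughout, with the summed CPM of 8 markers between 3039 and 5183. The 7 melanoma markers summed to 26.2 to 42.4 CPM in the 6 naive and effector libraries and to 414 to 1608 CPM in the 6 tumour libraries, and all 7 were called higher in each tumour group than in the naive group. Tyr, Tyrp1 and Sox10 had no count in the effector group. The 14 macrophage and monocyte markers summed to 91.2 to 127 CPM outside tumours and 144 to 244 CPM in tumours. Ctss, the most abundant, had group means of 77.3 to 94.9 CPM and was not higher in tumours. Apoe rose from 4.26 CPM in naive cells to 45.1 at day 4 and 44.4 at day 14, while Csf1r went from 2.33 to 2.15 and 1.72 CPM. Of those 14, 4 were called higher at day 4 (33.4% of all genes) and 3 at day 14 (33.6%) than in naive cells, and Cd14 had no count in the naive or effector group. The 9 dendritic cell and class II MHC markers summed to 9.99 to 36.4 CPM outside tumours and 144 to 225 CPM in tumours, and of the 8 tested, 6 were called higher at day 4 and 8 at day 14. The 6 CD4 T cell and regulatory T cell markers, which include the activation genes Ctla4 and Il2ra, summed to 12.2 to 18.3 CPM in naive, 379.8 to 573 in effector, 653 to 824 in day 4 and 1057 to 1507 in day 14 libraries, while Cd4 itself had group means of 0.388 to 3.6 CPM. In every library the fibroblast, B cell, neutrophil and erythroid lists summed to at most 28 CPM each. The fibroblast list summed to 0.516 to 2.39 CPM outside tumours and 1.39 to 23.3 CPM in tumours. The B cell list summed to 8.34 to 22.5 CPM outside tumours and 1.53 to 6.73 CPM in tumours. The endothelial list summed to 177 to 198 CPM outside tumours and 43.9 to 87.7 CPM in tumours, mostly from Pecam1, which naive T cells also express. Pecam1 fell from a mean of 185 CPM in naive cells to 72.1 at day 4 and 48.5 at day 14. Vwf of the same list went the other way, from 0.0521 to 5.11 and 3.79 CPM, so the lower sum is that of Pecam1. The NK cell list summed to 1.85 to 13.9 CPM except in effector replicate 2, where it reached 153 CPM through Gzma. Mki67, a proliferation gene, stood at 85.3 ± 53.3 CPM in naive cells, 228 ± 305 in effector cells, 2165 ± 66.5 at day 4 and 2284 ± 351 at day 14. Effector replicate 2 carried the effector mean, at 579.6 CPM against 42.8 and 60.8 CPM in the other effector libraries. Without that library 6 brakes, in place of 8, were called in effector against naive cells, and 3303 genes, in place of 4098, over all genes. The brakes lost, Dgka and Sla2, were also lost without effector replicate 1 or naive replicate 2 or 3. In the fit without effector replicate 2, 0 called differences of the brakes turned direction. The part that RNA of other cells or cell division has in the differences below was not tested.

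Among the 10 brakes, the transcripts of Cblb, Ptpn22 and Ubash3b were highest in day 14 tumour cells, Dgka was high in naive and effector cells and 8.22- to 10.6-fold lower in both tumour groups, and Cd5 showed no called difference. A test of any difference among the 4 groups called 9 of the 10 brakes, against 74.8% of all tested genes; the exception was Cd5 (edgeR adjusted p = 0.829). In effector against naive cells 8 brakes were called, against 24.9% of all genes, with 6 higher (14.6% of all genes) and 2 lower (10.4%). Between day 4 and naive cells 7 were called (62.2% of all genes), 4 higher (33.4%) and 3 lower (28.8%). Between day 14 and naive cells 7 were called (62.1%), 4 higher (33.6%) and 3 lower (28.5%). Between day 4 and effector cells 9 were called (61.9%), 4 higher (32.7%) and 5 lower (29.2%). Between day 14 and effector cells 9 were called (61%), 5 higher (32.6%) and 4 lower (28.4%). From day 4 to day 14, 5 were called (12.1%), 4 higher (7.17%) and 1 lower (4.91%). The libraries of the groups compared did not overlap for 8 brakes in effector against naive cells (40.2% of all genes), 7 in day 4 against naive (68.4%), 6 in day 14 against naive (68.5%), 9 in day 4 against effector (67.6%), 8 in day 14 against effector (66.5%) and 6 in day 14 against day 4 (30.5%). The share of brakes called was above that of all genes by the widest margin in effector against naive cells and in day 14 against day 4, and near it in the comparisons of tumour with naive cells. By mean log2 CPM the brakes lay between percentiles 80.4 (Sla2) and 99.2 (Ptpn22) of the tested genes. The part that this high level has in the shares called was not tested. The median log2 fold change of the 10 brakes lay near that of all genes in 5 of these 6 comparisons: 0.04 against 0.03 for day 4 over naive, 0.02 against 0.04 for day 14 over naive, -0.13 against 0.06 for day 4 over effector, 0.18 against 0.06 for day 14 over effector and 0.01 against 0 for day 14 over day 4. For effector over naive it was 0.33 against 0.01. The 6 comparisons share groups and are not independent of each other.

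**Figure D1:**
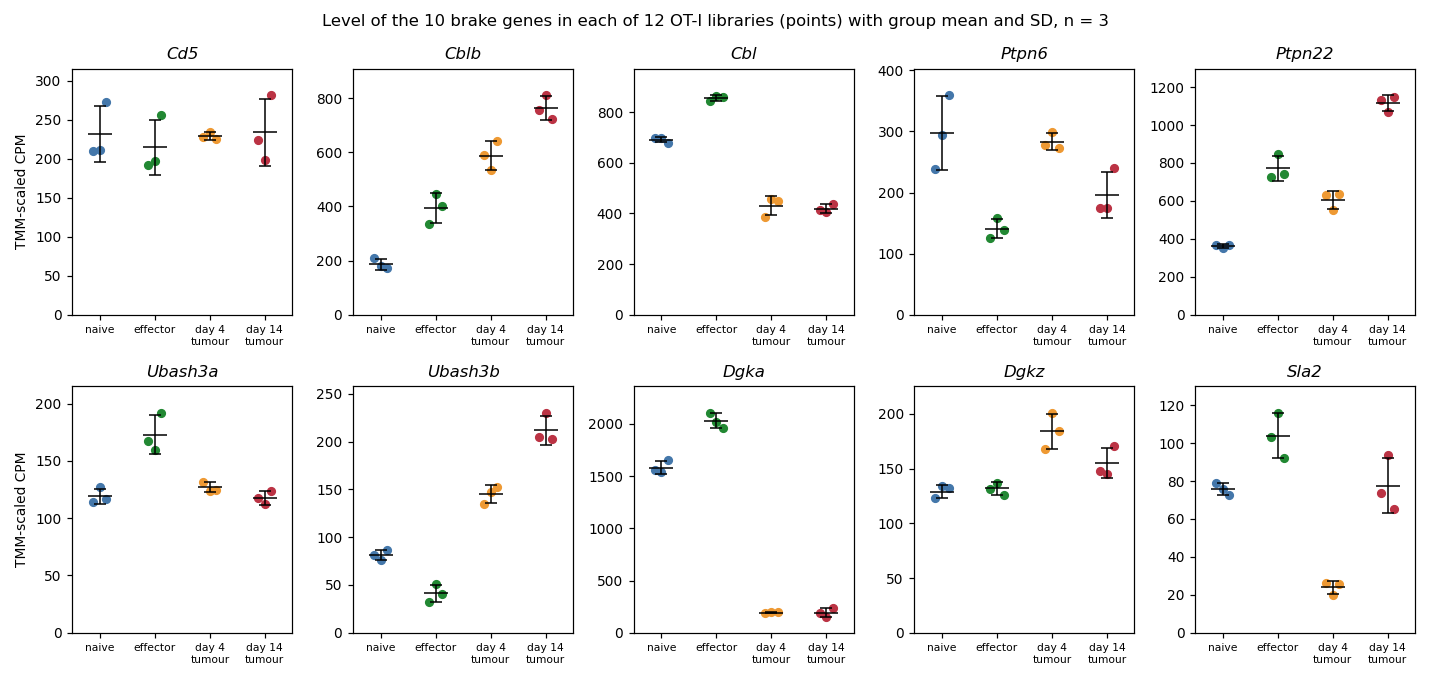
TMM-scaled CPM (y axis, from 0) of each brake gene in the 12 libraries (points, by group on the x axis), with the group mean (bar) and SD (whiskers), n = 3. Dgka lies between 1541 and 2106 CPM outside tumours and between 149 and 236 CPM in tumours, while Cblb and Ptpn22 are lowest in the naive group and highest at day 14.

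**Figure D2:**
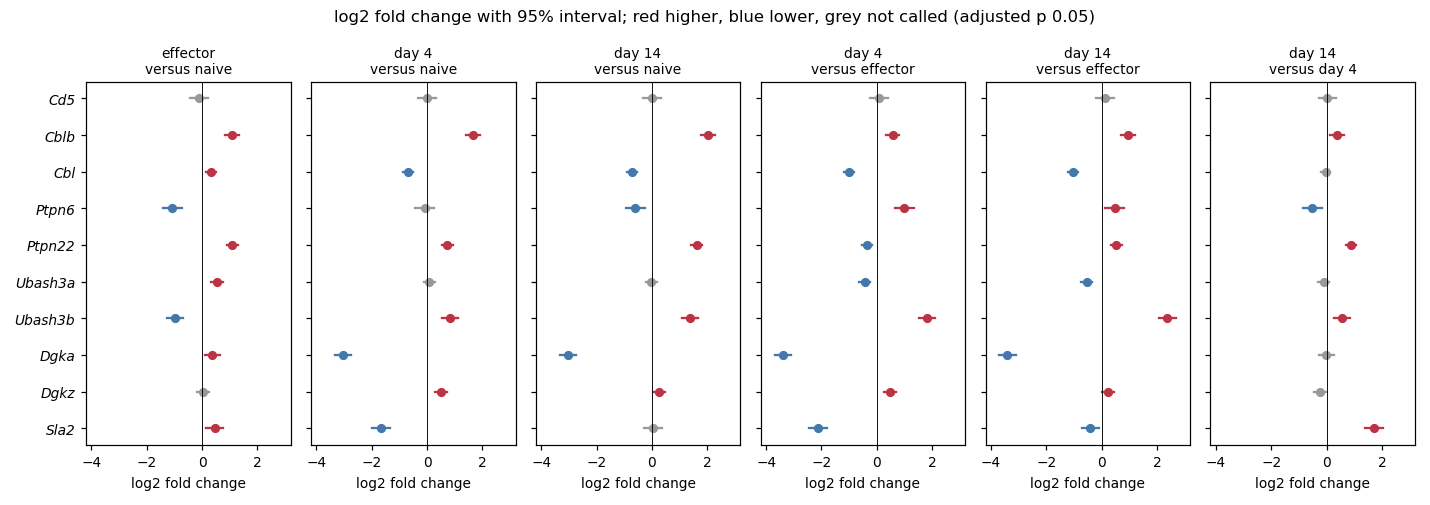
Fitted log2 fold change (x axis) of each brake (y axis) in the 6 comparisons (panels), with its 95% interval; red is called higher, blue called lower and grey not called. Dgka lies at -3.04 to -3.41 in the 4 comparisons of tumour with other cells, and Cd5 is grey in every panel.

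Promoter windows are shown for Dgka, which was low in both tumour groups, and for Cblb, Ptpn22 and Ubash3b, whose 3 day 14 libraries were above the other 9. Each is the RefSeq window (GRCm38.p6) of 250 bases before to 50 bases after a transcript start, 5′ to 3′ along the gene, for the start nearest to the 5′ end of the gene in GENCODE M21. The Dgka window is chr10:128745035-128745334 (minus strand), the Cblb window chr16:52031299-52031598 (plus), the Ptpn22 window chr3:103859545-103859844 (plus) and the Ubash3b window chr9:41158013-41158312 (minus). Their starts lie 229, 324, 0 and 3635 bases from the GENCODE ones, in that order. Capitals mark TGGAAA, the core bound by NFAT, on either strand.
Dgka: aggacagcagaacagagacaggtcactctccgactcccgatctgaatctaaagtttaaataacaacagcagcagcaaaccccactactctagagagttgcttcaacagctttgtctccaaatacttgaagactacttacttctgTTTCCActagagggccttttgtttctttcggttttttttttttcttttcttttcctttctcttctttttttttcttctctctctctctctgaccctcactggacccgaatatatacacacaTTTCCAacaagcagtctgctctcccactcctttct
Ubash3b: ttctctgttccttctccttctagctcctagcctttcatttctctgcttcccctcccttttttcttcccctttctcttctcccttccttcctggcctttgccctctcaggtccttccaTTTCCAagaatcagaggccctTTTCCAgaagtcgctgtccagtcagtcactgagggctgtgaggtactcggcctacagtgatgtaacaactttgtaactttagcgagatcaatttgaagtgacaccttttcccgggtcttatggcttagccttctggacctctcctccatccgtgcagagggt
Cblb: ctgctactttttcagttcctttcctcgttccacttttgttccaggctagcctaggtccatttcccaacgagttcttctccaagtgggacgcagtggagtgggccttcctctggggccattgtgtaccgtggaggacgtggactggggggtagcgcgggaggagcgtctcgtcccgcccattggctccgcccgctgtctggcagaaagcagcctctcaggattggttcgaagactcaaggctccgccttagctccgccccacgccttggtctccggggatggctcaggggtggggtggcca
Ptpn22: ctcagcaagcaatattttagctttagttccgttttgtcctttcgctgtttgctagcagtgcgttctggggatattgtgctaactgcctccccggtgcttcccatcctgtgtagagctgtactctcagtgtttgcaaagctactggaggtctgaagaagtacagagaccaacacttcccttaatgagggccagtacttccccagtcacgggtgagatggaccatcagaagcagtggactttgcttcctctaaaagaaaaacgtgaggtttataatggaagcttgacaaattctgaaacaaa
All 10 brakes matched the RefSeq table, with 16 windows in all. On both strands, 6 motifs chosen after the expression values were known were searched: TGGAAA (NFAT), TGANTCA (AP-1), AAAGGTCA (NR4A), GCGTGGGCG (EGR), TGTTTAC (FOXO) and CTTTGA (TCF and LEF). The NFAT core lay in 7 of the 16 windows, against 21.4% of 32851 mouse windows, and windows of 1 gene can overlap. Those with the core belonged to Cd5, Ptpn6, Ubash3b and Dgka only. Ubash3b has 2 windows and Dgka has 4, so the count is of windows and not of genes. The Dgka window above holds the NFAT core at 106 bases before and 15 bases after the start, and the Ubash3b window at 133 and 112 bases before the start. CTTTGA lay in 1 of the 16 windows, a second Dgka window, against 16% of all windows, and no hit shared bases with a hit of another motif. The other 4 motifs lay in 0 of the 16 windows, against 7.81% of all windows for AP-1, 1.51% for NR4A, 0.612% for EGR and 3.65% for FOXO. The printed Cblb and Ptpn22 windows hold none of the 6.

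Cd5 (chromosome 19, 10717116 to 10739002, minus strand, GRCm38), the surface receptor of the set, had a mean of 215 to 234 CPM in every group. Its library values spanned 210.5 to 273 CPM in naive cells, 192 to 256 in effector cells, 225 to 235 at day 4 and 198 to 282 at day 14, and the ranges of all 4 groups overlap. The largest group difference, day 14 over effector, was 0.12 on the log2 scale with a 95% interval of -0.2 to 0.45 (edgeR adjusted p = 0.462). The intervals of all 6 comparisons lay within -0.43 and 0.45.

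The ligase Cblb (chromosome 16, 52031225 to 52208048, plus strand), which sets the need for costimulation in T cells, rose in every comparison with naive cells. Naive libraries held 209.9, 180.3 and 172 CPM and effector libraries 336, 445 and 403 CPM. Day 4 libraries held 591, 533 and 642 CPM and day 14 libraries 757, 812 and 723 CPM. No group overlapped its neighbour, and the order was naive, effector, day 4, day 14. Cblb was 2.11-fold higher in effector than in naive cells (log2 1.07, SE 0.11, edgeR adjusted p = 3.35e-06), 3.14-fold higher at day 4 (1.65, SE 0.11, adjusted p = 2.34e-09) and 4.08-fold higher at day 14 (2.03, SE 0.11, adjusted p = 2.65e-10). It was also higher in both tumour groups than in effector cells, by 0.58 (SE 0.11) at day 4 and 0.95 (SE 0.11) at day 14 on the log2 scale. The further rise from day 4 to day 14 was 1.3-fold (log2 0.38, SE 0.11, edgeR adjusted p = 0.0291). That last call was lost without day 4 replicate 1 (adjusted p = 0.0844), day 4 replicate 2 (0.154), day 14 replicate 1 (0.0688) or day 14 replicate 2 (0.141), and in counts of 1 strand (0.0575).

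Its paralog Cbl (chromosome 9, 44142976 to 44234049, minus strand), also a ubiquitin ligase, fell in tumour cells. Naive libraries held 697, 696 and 679.6 CPM and effector libraries 843, 864 and 861 CPM. Day 4 libraries held 386, 456 and 448 CPM and day 14 libraries 414, 404 and 438 CPM. The effector libraries were above all others and the tumour groups, which overlap each other, were below both other groups. Cbl was 1.61-fold lower at day 4 than in naive cells (log2 -0.68, SE 0.08, edgeR adjusted p = 1.16e-06) and 1.65-fold lower at day 14 (-0.72, SE 0.08, adjusted p = 6.62e-07). Against effector cells it was 1.99-fold lower at day 4 and 2.04-fold lower at day 14. The tumour groups differed by -0.04 on the log2 scale, with a 95% interval of -0.22 to 0.14 (edgeR adjusted p = 0.844). In effector over naive cells Cbl was 1.24-fold higher (log2 0.31, SE 0.08, edgeR adjusted p = 0.00776), a call that was lost when libraries were scaled by total counts (log2 0.17, adjusted p = 0.128).

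The phosphatase Ptpn6 (SHP-1; chromosome 6, 124720707 to 124738714, minus strand) was lowest in effector cells. Naive libraries held 239, 294 and 359.7 CPM, effector libraries 126, 158 and 139 CPM, day 4 libraries 277, 299 and 273 CPM, and day 14 libraries 175, 174 and 239.9 CPM. All effector libraries were below the other 9, the day 4 libraries lay inside the naive range, and the day 14 libraries lay between the effector and day 4 ones. Ptpn6 was 2.11-fold lower in effector than in naive cells (log2 -1.08, SE 0.15, edgeR adjusted p = 0.000141) and 2-fold higher at day 4 than in effector cells (1, SE 0.15, adjusted p = 4.43e-05). Day 4 and naive cells differed by -0.07 (95% interval -0.42 to 0.27, edgeR adjusted p = 0.685). At day 14 it was lower than in naive cells (-0.6, SE 0.15, edgeR adjusted p = 0.00283), although the libraries overlap, and higher than in effector cells (0.48, SE 0.15, adjusted p = 0.0129). Without day 14 replicate 3 the second of these was not called (0.3, adjusted p = 0.0699). The fall from day 4 to day 14 (-0.53, SE 0.15, edgeR adjusted p = 0.0319) was not called without day 4 replicate 1 (0.0861), 2 (0.097) or 3 (0.0614), or day 14 replicate 1 (0.106) or 2 (0.116). Ptpn6 shares 195 exon bases with the antisense gene Gm20531, which was at 0.118 to 1.3 CPM in the group means.

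The phosphatase Ptpn22 (PEP; chromosome 3, 103859795 to 103912247, plus strand), which dephosphorylates Lck and Zap70, rose in culture and again at day 14. Naive libraries held 367, 352 and 368 CPM, effector libraries 727, 847 and 743 CPM, day 4 libraries 632, 551 and 634 CPM, and day 14 libraries 1132, 1068 and 1148 CPM. The groups did not overlap, in the order naive, day 4, effector, day 14. Against naive cells Ptpn22 was 2.13-fold higher in effector cells (log2 1.09, SE 0.08, edgeR adjusted p = 2.3e-07), 1.67-fold higher at day 4 (0.74, SE 0.08, adjusted p = 9.59e-07) and 3.08-fold higher at day 14 (1.62, SE 0.08, adjusted p = 1.36e-10). Day 4 lay below effector cells (-0.35, SE 0.08, edgeR adjusted p = 0.00152) and day 14 above them (0.53, SE 0.08, adjusted p = 3.68e-05). The rise from day 4 to day 14 was 1.84-fold (0.88, SE 0.08, edgeR adjusted p = 5.05e-06) and was called in all 20 alternative settings.

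The UBASH3 paralogs moved in opposite directions in effector cells. Ubash3b (STS-1; chromosome 9, 41011098 to 41161697, minus strand), which dephosphorylates Zap70, held 81.7, 75.6 and 86.5 CPM in naive libraries and 32.1, 50.7 and 40.5 CPM in effector libraries. It held 135, 147 and 153 CPM in day 4 libraries and 205, 230.1 and 203 CPM in day 14 libraries. The groups did not overlap, in the order effector, naive, day 4, day 14. Ubash3b was 1.98-fold lower in effector than in naive cells (log2 -0.98, SE 0.13, edgeR adjusted p = 4.21e-05), and against naive cells 1.78-fold higher at day 4 (0.83, SE 0.13, adjusted p = 2.61e-05) and 2.61-fold higher at day 14 (1.39, SE 0.13, adjusted p = 1.02e-07). Day 14 stood 5.18-fold above effector cells (2.37, SE 0.13, edgeR adjusted p = 3.42e-10) and 1.47-fold above day 4 (0.55, SE 0.12, adjusted p = 0.00707). Ubash3a (STS-2; chromosome 17, 31207873 to 31246892, plus strand) spanned 114 to 127 CPM in naive libraries, 159.6 to 192 in effector libraries, 124 to 132 at day 4 and 112 to 124 at day 14. Only its effector libraries stood apart, 1.45-fold above naive (log2 0.54, SE 0.09, edgeR adjusted p = 0.000342). Day 14 and naive cells differed by -0.02 (95% interval -0.22 to 0.19, edgeR adjusted p = 0.869).

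Dgka (diacylglycerol kinase alpha; chromosome 10, 128720134 to 128744855, minus strand) showed the largest difference of the set. Naive libraries held 1554, 1541 and 1650.1 CPM and effector libraries 2106, 2022 and 1962 CPM, against 186, 196 and 195 CPM in day 4 libraries and 189.5, 149 and 236 CPM in day 14 libraries. Every tumour library was far below every other library, and the day 14 range held the day 4 one. Dgka was 8.22-fold lower at day 4 than in naive cells (log2 -3.04, SE 0.13, edgeR adjusted p = 1.66e-11) and 8.26-fold lower at day 14 (-3.05, SE 0.13, adjusted p = 1.68e-11). Against effector cells both tumour groups were 10.6-fold lower (log2 -3.4 at day 4 and -3.41 at day 14, SE 0.13). Day 14 and day 4 differed by -0.01 (95% interval -0.28 to 0.26, edgeR adjusted p = 0.988). In bulk RNA, fewer cells with a transcript and less of it in each cell cannot be told apart. The smaller rise from naive to effector cells (log2 0.36, SE 0.12, edgeR adjusted p = 0.0321), with no overlap between the libraries, was not called with total counts (0.22, adjusted p = 0.155), with a CPM of at least 1 in 3 libraries (0.32, adjusted p = 0.0562), or without any 1 of 9 libraries, which were the 3 naive ones, the 3 effector ones, replicates 2 and 3 of day 4 and replicate 1 of day 14 (adjusted p = 0.0527 to 0.137). Dgka shares 105 exon bases (2.2% of its exons) with Pmel on the opposite strand, a melanoma marker. Pmel was at 27.9 CPM in naive and 37.5 CPM in effector cells, and at 91.8 CPM at day 4 and 103 CPM at day 14, so it was high where Dgka was low. In counts of 1 strand the log2 fold change of Dgka over naive was -3.04 at day 4 and -3.03 at day 14. The libraries are unstranded, so these counts do not separate Dgka from Pmel over the shared bases.

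Dgkz (diacylglycerol kinase zeta; chromosome 2, 91932824 to 91975864, minus strand), which acts on the same lipid, was highest at day 4. It spanned 123 to 134 CPM in naive libraries, 126 to 137 in effector libraries, 168 to 201 at day 4 and 145 to 171 at day 14. Day 4 was 1.42-fold above naive (log2 0.51, SE 0.09, edgeR adjusted p = 0.000153) and 1.4-fold above effector cells (0.48, SE 0.09, adjusted p = 0.000234). Effector and naive cells differed by 0.02 (95% interval -0.19 to 0.24, edgeR adjusted p = 0.9). Day 14 was above naive by 0.26 (SE 0.09, edgeR adjusted p = 0.0233) and above effector cells by 0.23 (SE 0.09, adjusted p = 0.0373). The first of these was lost without naive replicate 1 (0.085) or day 14 replicate 3 (0.118) and with total counts (0.108), and the second without effector replicate 3 (0.065) or day 14 replicate 3 (0.192). Day 14 over day 4 was -0.25 (edgeR adjusted p = 0.0875) and was called without day 14 replicate 3 (-0.34, adjusted p = 0.0345). Dgkz shares 222 exon bases with Gm9821, which stood at 7.17 to 36.9 CPM in the group means, highest at day 4.

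The adaptor Sla2 (SLAP-2; chromosome 2, 156872457 to 156887192, minus strand) was lowest at day 4. Naive libraries held 78.9, 75.6 and 72.7 CPM, effector libraries 103, 116 and 92.1 CPM, day 4 libraries 26.3, 19.8 and 25.6 CPM, and day 14 libraries 73.7, 93.6 and 65.1 CPM. The day 4 libraries were below the other 9, and the day 14 libraries overlapped both the naive and the effector ones. Sla2 was 3.17-fold lower at day 4 than in naive cells (log2 -1.66, SE 0.14, edgeR adjusted p = 4.15e-08), 4.34-fold lower than in effector cells (-2.12, SE 0.14, adjusted p = 2.48e-09), and 3.24-fold higher at day 14 than at day 4 (1.7, SE 0.14, adjusted p = 1.8e-06). Day 14 and naive cells differed by 0.03 (95% interval -0.28 to 0.35, edgeR adjusted p = 0.846). Sla2 was higher in effector than in naive cells (0.45, SE 0.14, edgeR adjusted p = 0.0219), a call lost without naive replicate 2 (0.0592) or 3 (0.0699) or effector replicate 1 (0.067) or 2 (0.0832), with total counts (0.115) and in counts of 1 strand (0.0578). Day 14 was lower than effector cells (-0.42, SE 0.14, edgeR adjusted p = 0.0131), lost without effector replicate 2 (0.0564) or day 14 replicate 1 (0.0712) or 3 (0.0789) and in counts of 1 strand (0.294). Sla2 shares 731 exon bases, 23.6% of its exons, with Rab5if on the opposite strand, and its unstranded count was 0.614 times the sum of its 2 strand-specific counts. Rab5if was also lowest at day 4, at 14.4 CPM against 23.6 to 29.9 CPM in the other groups. In counts of 1 strand the day 4 differences of Sla2 kept their direction and call but were smaller: -0.93 against naive, -1.30 against effector, and 1.13 for day 14 over day 4. The libraries are unstranded, so these counts do not separate Sla2 from Rab5if over the shared bases.

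Of the 10 brakes, Cblb, Ptpn22 and Ubash3b had their 3 day 14 libraries above the other 9, a pattern found in 6.44% of all tested genes. Cbl, Ubash3a and Dgka had their effector libraries above the other 9 (10.1% of genes), and Ptpn6 and Ubash3b had them below (6.26%). The naive libraries of Cblb and Ptpn22 were below the other 9 (8.95%), and the day 4 libraries of Sla2 were (6.46%). No brake had naive or day 4 libraries above the other 9 (8.55% and 6.72% of genes) or day 14 libraries below them (4.01%), and no group stood apart in either way for Cd5 or Dgkz.

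In the 3 paralog pairs the balance of the paralogs differed among the groups. The log2 ratio of Cblb to Cbl in CPM was -1.73, -1.95 and -1.98 in naive libraries, -1.32, -0.96 and -1.09 in effector libraries, 0.61, 0.23 and 0.52 at day 4 and 0.87, 1.01 and 0.72 at day 14. Per kilobase of exon, Cblb was at 0.319 times the level of Cbl in naive cells and 2.15 times at day 14, and the order of the paralogs turned between the effector and tumour groups with either measure of length. The log2 ratio of Ubash3b to Ubash3a was -0.55 ± 0.17 in naive cells, -2.08 ± 0.38 in effector cells, 0.19 ± 0.14 at day 4 and 0.85 ± 0.17 at day 14 (SD, n = 3). Per kilobase of exon, Ubash3b stood at 0.363 times Ubash3a in effector cells and 2.76 times at day 14; in naive cells the ratio was 1.05 by the union of exons and 0.821 by the longest coding transcript, so their order there depends on the length used. The log2 ratio of Dgka to Dgkz was 3.66, 3.52 and 3.64 in naive libraries, 4.00, 3.87 and 3.96 in effector libraries, 0.15, -0.04 and 0.09 at day 4 and 0.35, 0.04 and 0.46 at day 14. Per kilobase of exon Dgka stood 16 times above Dgkz in naive cells and 1.61 times at day 14. An exact permutation test of the spread between groups, one-sided on F over 369600 assignments of the 12 libraries, gave an adjusted p over the 3 pairs of 9.74e-05 for Cblb to Cbl, 9.74e-05 for Ubash3b to Ubash3a and 0.000195 for Dgka to Dgkz. The smallest unadjusted p this design allows is 6.49e-05. Since 74.8% of all tested genes differed among the groups in the edgeR test, ratios of many other gene pairs may differ too. Other pairs were not tested, so these p-values do not set the paralogs apart.

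**Figure D3:**
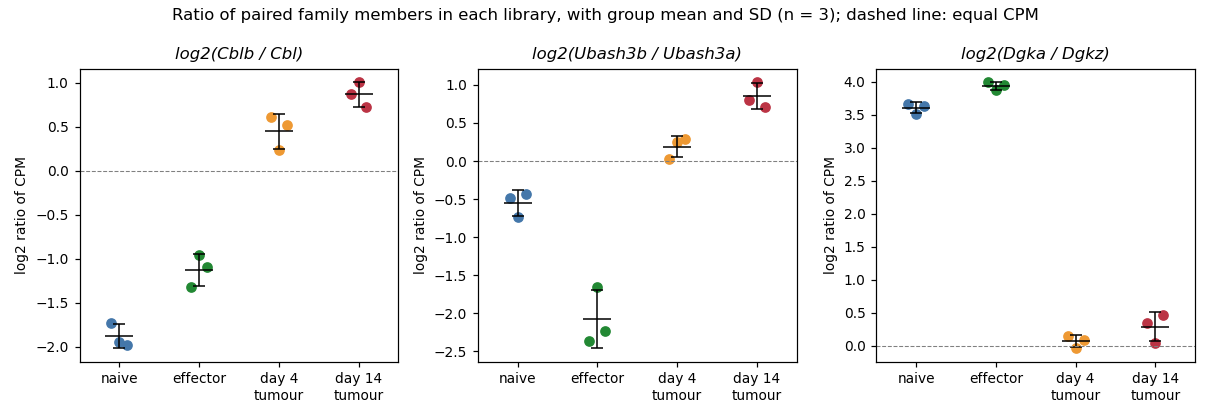
log2 ratio of CPM (y axis) of the paralogs Cblb and Cbl, Ubash3b and Ubash3a, and Dgka and Dgkz in each library (points, by group on the x axis), with the group mean (bar) and SD (whiskers), n = 3; the dashed line is an equal CPM. The first ratio lies below 0 outside tumours and above 0 in all 6 tumour libraries, and the last drops from a mean of 3.61 in naive and 3.94 in effector cells to 0.07 and 0.29 in tumour cells.

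Set against each other per kilobase of exon, Dgka was the most abundant of the 10 brakes in naive cells (332 ± 12.6 CPM per kilobase) and effector cells (426 ± 15.2) and the fifth in both tumour groups (40.4 ± 1.14 at day 4, 40.2 ± 9.09 at day 14). At day 14 Ptpn22 was first (165 ± 6.29 CPM per kilobase) and Cblb second (73 ± 4.27), ahead of Ptpn6 (70 ± 13.5), a neighbour within the spread of the libraries. At day 4 Ptpn6 (101 ± 4.94) and Ptpn22 (89.4 ± 6.95) were first and second by exon length and changed places by the longest coding transcript. Ubash3a and Ubash3b were the 2 least abundant brakes in naive cells and in effector cells with either length.

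Other genes of the pathway moved in several ways in the same comparisons. A list of 30 further intracellular brakes also held genes with activating roles, such as Ptpn11 and Nedd4. Of these 30 genes, 14 rose and 5 fell in effector over naive cells (median log2 fold change 0.25, all genes 0.01), where 14.6% of all genes rose and 10.4% fell. At day 4 over naive 14 rose and 10 fell (0.13, all genes 0.03), where 33.4% of all genes rose and 28.8% fell. At day 14 over naive 19 rose and 8 fell (0.56, all genes 0.04), where 33.6% of all genes rose and 28.5% fell. From day 4 to day 14, 9 rose and 0 fell (0.29, all genes 0), where 7.17% of all genes rose and 4.91% fell. The deubiquitinating enzyme A20 (Tnfaip3) went from 57.3 CPM in naive cells to 1252 at day 4 and 2046 at day 14 (log2 5.16, SE 0.17, edgeR adjusted p = 1.54e-11, day 14 over naive). The receptor phosphatase Ptprj rose from 1.98 CPM in naive cells to 79.6 at day 14 (5.32, SE 0.37, edgeR adjusted p = 2.28e-07). Pag1, the membrane adaptor that anchors the inhibitory kinase Csk, fell from 313 to 41.2 CPM (-2.93, SE 0.11, edgeR adjusted p = 2.95e-12), and the Ras GTPase-activating protein Rasa3 from 337 to 62.1 CPM (-2.44, SE 0.13, adjusted p = 2.95e-10). From day 4 to day 14 the adaptor Lax1 rose from 26.3 to 70.1 CPM (1.41, SE 0.19, edgeR adjusted p = 0.000285).

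Of 14 other diacylglycerol kinase and CBL family genes and CBL partners, 11 were tested. At day 14 over naive 2 rose and 5 fell (median -0.22, all genes 0.04), where 33.6% of all genes rose and 28.5% fell. In effector over naive cells 0 rose and 2 fell (median -0.01, all genes 0.01), where 14.6% of all genes rose and 10.4% fell. Dgkh, diacylglycerol kinase eta, rose from 16.9 CPM in naive cells to 98.3 at day 4 and 211 at day 14 (3.64, SE 0.29, edgeR adjusted p = 1.24e-06, day 14 over naive), while Dgka fell. Cd2ap, an adaptor that binds CBL proteins, fell from 215 CPM in naive cells to 61.1 at day 14 (-1.82, SE 0.13, edgeR adjusted p = 4.12e-09).

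Of 26 receptor-proximal components on which the brakes act, 9 rose and 4 fell in effector over naive cells (median 0.08, all genes 0.01), 4 rose and 19 fell at day 4 over naive (-0.6, all genes 0.03), and 5 rose and 16 fell at day 14 over naive (-0.51, all genes 0.04). From day 4 to day 14, 10 rose and 0 fell (median 0.29, all genes 0). Over all genes, 14.6% rose and 10.4% fell in the first of these comparisons, 33.4% and 28.8% in the second, 33.6% and 28.5% in the third, and 7.17% and 4.91% in the fourth. The kinase Txk fell from 305 CPM in naive cells to 58.4 at day 14 (-2.38, SE 0.16, edgeR adjusted p = 9.17e-09). Prkcq, the protein kinase C theta that diacylglycerol activates, fell from 475 to 131 CPM (-1.86, SE 0.1, edgeR adjusted p = 2.82e-10). The adaptor Grap2 (GADS) fell from 627 CPM in naive cells to 130.3 at day 4 and rose to 248 at day 14 (0.93 over day 4, SE 0.1, edgeR adjusted p = 2.54e-05). Of 11 transcripts that receptor signals induce, 3 rose and 4 fell in effector over naive cells (median -0.14, all genes 0.01), 9 rose and 0 fell at day 4 over naive (2.59, all genes 0.03), and 8 rose and 1 fell at day 14 over naive (2.02, all genes 0.04), against the same shares of all genes. Nr4a2, an orphan nuclear receptor induced by the receptor, went from 4.69 CPM in naive cells to 2502 at day 4 and 2098 at day 14 (8.81, SE 0.3, edgeR adjusted p = 7.44e-10, day 14 over naive).

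**Figure D4:**
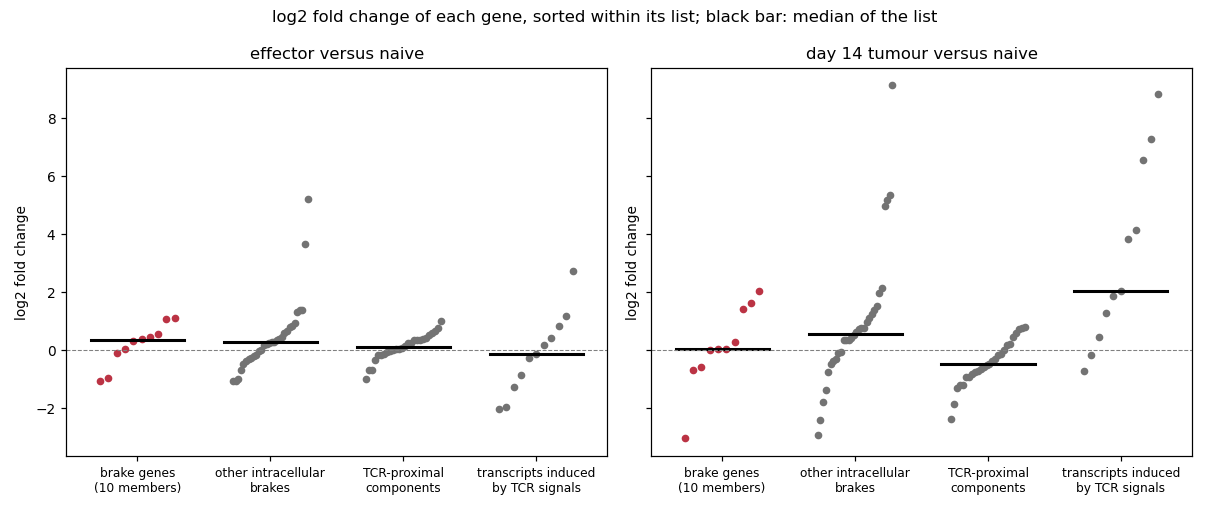
Fitted log2 fold change (y axis) of each gene in the 10 brakes (red) and 3 pathway lists (grey), sorted within its list (x axis), for effector over naive cells (left) and day 14 tumour over naive cells (right); black bars are list medians. At day 14 the medians are 0.02 for the 10 brakes, 0.56 for the list of other brakes, -0.51 for receptor-proximal components and 2.02 for induced transcripts.

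For the 4 brakes with the widest range of group means, the genes most like them over the 12 libraries were taken from 6749 protein-coding genes by Pearson correlation of log2 CPM. The libraries fall into the same 4 groups for every gene, so a high value describes a shared order of groups. Dgka was most like Kif21b (r = 0.997), Shisa5 (0.996) and Atp11b (0.995). Ubash3b was most like Tox (0.99), the nuclear factor that marks exhausted T cells, Sept11 (0.98) and Zmiz1 (0.98). Cblb was most like Hip1 (0.994), the inhibitory receptor gene Tigit (0.991) and the granzyme gene Gzmb (0.99). Sla2 was most like Sipa1l1 (0.969), Dop1b (0.967) and Tbk1 (0.964).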

How the data were processed

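The deposited tables hold raw gene-level read counts. The submitters' processing notes name fastp 0.19.6, STAR 2.6.1b and GRCm38; the annotation release is not given in the sources used here. Per the labels' protocols, cDNA was amplified and libraries were made by tagmentation. Unstranded counts were used, since 49.8% to 49.89% of stranded counts fell on each table's first strand column. Of all reads, 20.67% to 30.17% mapped outside annotated exons, within introns or between genes, and summary lines were left out. Reads over genes that overlap cannot be assigned. Symbols came from GENCODE M21, which 55141 of 55401 identifiers matched.

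All 12 libraries entered 1 quasi-likelihood fit in edgeR 4.0.16 (R 4.3.3) after filterByExpr and TMM scaling, with 8 residual degrees of freedom and Benjamini-Hochberg adjustment over 16426 genes. Paralog ratios used CPM with a pseudocount of 0.5. Alternatives were DESeq2 1.42.0, other scalings and filters, 1 strand, a replicate block and leaving out each library. The 10 genes, the pathway lists and the markers were chosen with earlier results of these data known. All 10 genes are named. From each list, up to 4 called genes per comparison could be named, those with the largest change whose mean log2 CPM reached 4, and for the 4 brakes with the widest range the 3 genes most correlated. The longest coding transcript as the length was added after the data were seen.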

Additional observations from a re-analysis of the deposited data

How the results depend on the processing

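With 3 libraries a group, the smallest log2 difference of a brake that was called was 0.23 and the largest not called was -0.25, both of Dgkz. Over the 8 settings with all 12 libraries, 352 of 360 called differences of single brakes remained called, 8 were not, and 0 turned direction. Over the 12 fits that each left out 1 library, 510 of 540 remained called, 30 did not, 0 turned and 1 was gained. Scaling by total counts moved the median of all genes to between -0.1 and 0.14 and left 5 brakes called in effector over naive cells (8 in the main analysis, 7 or 8 in the other settings with all 12 libraries and 6 to 8 without 1 library), with 1544 genes higher and 2508 lower over all genes in place of 2395 and 1703. Leaving out 1 library gave 3 to 6 brakes called for day 14 over day 4 (5 with all): 3 without day 4 replicate 1 or 2 or day 14 replicate 1 or 2, and 6 without day 14 replicate 3. Over all genes, 1984 were called with all libraries, 1332, 1347, 1463 and 1283 in the fits with 3 brakes, in that order, and 1772 in the fit with 6. The cause was not tested. Replicate numbers did not pair the samples: same-numbered libraries correlated in their deviations at -0.0884 to 0.102, and 4 of 12 correlated best with their own number. With a replicate block, the paralog ratios kept an exact permutation adjusted p = 0.00174 each, the counts of brakes called did not change in any comparison, and the sign of Cd5 below was the sole change.

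Differences near 0 that were not called changed sign in some settings. Cd5 for day 4 over naive (-0.01) was 0.02 with DESeq2 size factors and with DESeq2, 0.01 without the filter, and 0 with the replicate block and on 1 strand. Ubash3a for day 14 over naive (-0.02) was 0.01, 0.01 and 0 in the first 3 of these settings. Dgkz for effector over naive (0.02) was -0.12 with total counts, -0.02 with the stricter filter, -0.06 on 1 strand and -0.02 with only the groups compared. With total counts, day 14 over naive was -0.06 for Cd5 and -0.04 for Sla2. Dgka for day 14 over day 4 was 0.01 on 1 strand. Leaving out 1 library, log2 values ranged from -0.29 to 0.03 for Cd5 in effector over naive, -0.07 to 0.14 for Cd5 and -0.20 to 0.10 for Ptpn6 in day 4 over naive, and -0.01 to 0.06 for Dgkz in effector over naive. For day 14 over naive they ranged from -0.13 to 0.16 for Cd5, -0.05 to 0.04 for Ubash3a and -0.13 to 0.15 for Sla2. They ranged from -0.03 to 0.31 for Cd5 in day 14 over effector, and in day 14 over day 4 from -0.14 to 0.12 for Cd5 and -0.20 to 0.13 for Dgka.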
